A study of Rattus norvegicus with 6 samples.

Results

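Described here are the α1ACT-only ChIP-seq peaks that the authors' annotated table places in intron 1 of a transcript. They numbered 4275 of the 159452 peaks in that table, or 2.68% (exact 95% binomial interval 2.60 to 2.76%), and 16.5% of the 25847 intronic peaks (16.1 to 17.0%). Membership was read from the annotation text alone, and the signal of each peak came from the peak list of the α1ACT line with the 1804 antibody. The study profiled PC12, an established line from a rat adrenal tumour of neural crest descent (pheochromocytoma), at passages 18 to 20. One line stably expressed the empty pCDNA3 vector (EV) and the other, titled Q11, stably expressed human α1ACT. Each line gave 3 libraries, with the anti-FLAG antibody M2, with an antibody labelled 1804, and without antibody as an input. Cells were fixed with 1% formaldehyde for 10 min. The labels do not say what 1804 recognises or whether a line is a single clone, and the series text speaks of tissues at day 3 where every sample label names PC12 cells. Each of the 6 groups held 1 library, which leaves the values without replicate error. No test between conditions was made, and the exact intervals cover counting error only. The files used here give no read depth, which is unknown.

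An intron is a stretch of a gene that is transcribed and then spliced out of the RNA. The first intron follows the first exon and is often among the longest of a gene, and regulatory elements such as enhancers are often found in it. The last intron precedes the final exon, which usually holds most of the 3' untranslated region. α1ACT is a transcription factor translated from the CACNA1A transcript, which also encodes the pore-forming subunit of a neuronal calcium channel. The annotation gives promoters precedence, so the peaks described here had a listed distance of at least 3011 bp to the nearest transcription start site (TSS). Measured from the peak centre, the smallest distance to the TSS of the host was 2986 bp.

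The intron numbers were first compared with the direction of transcription, and they did not follow it. Numbers rose with the chromosome coordinate on both strands. Walking away from the TSS of plus-strand hosts, the number of the intron rose at 2443 changes and fell at 0, over 1162 transcripts. In minus-strand hosts it rose at 0 changes and fell at 2308, over 1139 transcripts. Peaks annotated as intron 1 lay at a median of 21.4% of the listed span from the TSS in plus-strand hosts of 2 or more introns (quartiles 10.4 and 38.6%). In minus-strand hosts the median was 85.9% (quartiles 71.8 and 94.0%). The name first-intron peaks therefore holds for only some of them. Of the 4275 peaks, 2731 (63.9%, 62.4 to 65.3%) were in the first intron along the transcript, in 885 plus-strand host genes. Another 1009 (23.6%, 22.3 to 24.9%) were in the last intron along the transcript, in 413 minus-strand host genes. A further 480 were in the only intron of 113 host genes, and 55 were in hosts whose strand the table did not give. Counted along the transcript, 5049 peaks in transcripts of 2 or more introns lay in the first intron, and 54.1% of them (52.7 to 55.5%) carried the annotation intron 1. Below, "annotated intron 1" names the 4275 peaks, and "first along the transcript" and "last along the transcript" name introns by the direction of transcription.

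**Figure D1:**
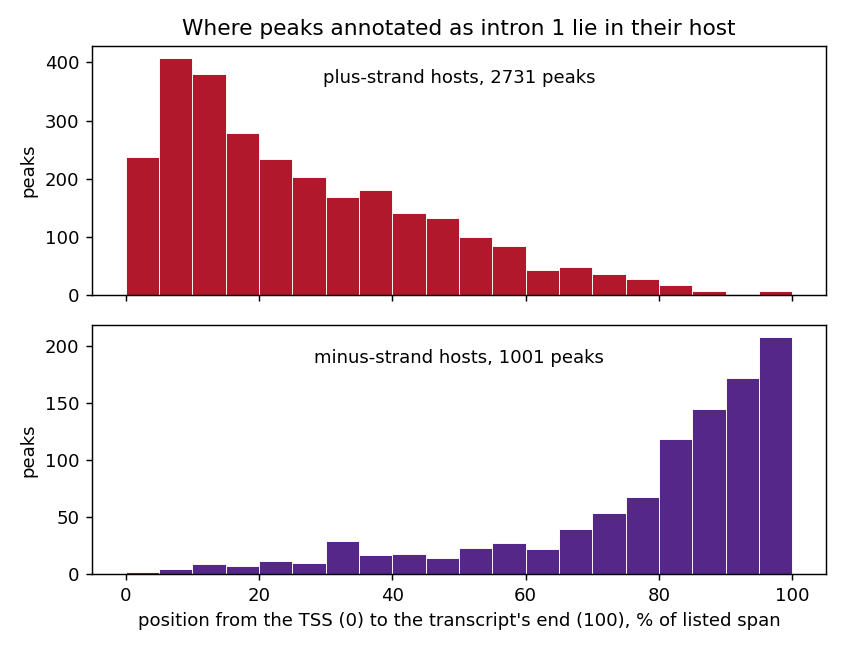
Number of peaks annotated as intron 1 (vertical axis) by their position in the listed host span, from the TSS at 0 to the end of the transcript at 100% (horizontal axis, bins of 5%), for hosts of 2 or more introns. The 2731 peaks of plus-strand hosts pile up near the TSS, and the 1001 peaks of minus-strand hosts with a known span pile up near the end.

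No peak sequence is printed, since no genome of the rn5 build was used. Promoters bear on these peaks where the host gene also carried an α1ACT-only peak in its promoter window, from 250 bp before to 50 bp after the TSS. Those of 4 hosts named below, each with an annotated peak in the first intron along the transcript, are shown to let a reader see what the sequence at such a window looks like. They are RefSeq sequences of the GRCr8 build, on the strand of the gene, and capitals mark matches to the GC box or the CCAAT box. The window peaks were found from the transcript starts listed on rn5. Whether those starts match the GRCr8 starts was not checked, so a peak may lie outside the printed sequence.
Ccdc40: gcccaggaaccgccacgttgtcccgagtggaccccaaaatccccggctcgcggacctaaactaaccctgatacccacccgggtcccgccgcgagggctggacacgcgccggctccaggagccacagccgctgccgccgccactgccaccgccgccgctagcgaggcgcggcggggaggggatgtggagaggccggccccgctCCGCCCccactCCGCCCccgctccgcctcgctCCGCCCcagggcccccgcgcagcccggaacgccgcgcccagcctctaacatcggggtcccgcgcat
Pcsk2: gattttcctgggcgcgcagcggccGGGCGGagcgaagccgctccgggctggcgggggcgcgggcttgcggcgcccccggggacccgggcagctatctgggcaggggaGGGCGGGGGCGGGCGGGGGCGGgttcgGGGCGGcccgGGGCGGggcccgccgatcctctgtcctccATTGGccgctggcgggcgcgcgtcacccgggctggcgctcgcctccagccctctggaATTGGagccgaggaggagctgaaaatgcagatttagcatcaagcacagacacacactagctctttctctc
Chrna5: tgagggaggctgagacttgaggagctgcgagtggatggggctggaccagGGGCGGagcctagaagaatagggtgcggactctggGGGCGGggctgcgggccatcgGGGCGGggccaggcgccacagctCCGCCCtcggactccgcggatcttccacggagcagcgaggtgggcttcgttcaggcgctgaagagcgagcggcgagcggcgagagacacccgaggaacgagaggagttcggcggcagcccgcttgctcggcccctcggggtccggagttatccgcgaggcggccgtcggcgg
Pde8a: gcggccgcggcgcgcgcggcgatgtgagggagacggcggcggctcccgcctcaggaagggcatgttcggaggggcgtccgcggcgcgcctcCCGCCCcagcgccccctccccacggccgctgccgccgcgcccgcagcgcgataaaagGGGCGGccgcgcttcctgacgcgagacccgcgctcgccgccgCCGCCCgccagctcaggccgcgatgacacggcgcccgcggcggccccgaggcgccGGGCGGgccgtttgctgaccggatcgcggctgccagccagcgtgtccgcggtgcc
They come from chr10:104985033-104985332 for Ccdc40, chr3:151333688-151333987 for Pcsk2, chr8:64265629-64265928 for Chrna5 and chr1:144575219-144575518 for Pde8a, all on the plus strand. The peak in the window had a signal of 10.3 in Pde8a, 6.37 in Ccdc40, 4.23 in Pcsk2 and 3.04 in Chrna5. GC content was 81.0% in Pde8a, 76.0% in Ccdc40, 73.3% in Pcsk2 and 71.3% in Chrna5. The GC box (GGGCGG on either strand, counted without overlap) matched 6 times in Pcsk2, 4 times in Chrna5, 4 times in Pde8a and 3 times in Ccdc40.

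The GC box was present in 58.3% of 1233 promoters of annotated intron 1 hosts (55.5 to 61.1%) and in 49.9% of all 15729 promoters of the same length. Where the annotated intron 1 was the first along the transcript, 64.4% of 756 promoters held it (60.9 to 67.8%). Hosts with a peak in the promoter window held it in 79.2% of 259 promoters (73.7 to 83.9%), and other genes with a peak in that window in 76.1% of 1893 (74.1 to 78.0%). Hosts without a peak in that window held it in 52.8% of 974 (49.6 to 55.9%), an interval that includes the 49.9% of all promoters. Median GC content was 62.0% in host promoters, 68.7% in those with a window peak and 58.0% in all promoters. The CCAAT box (CCAAT or ATTGG) was in 33.9% of host promoters and 37.9% of all, and the TATA box (TATAAA or TTTATA) in 8.27% and 11.7%. The cyclic AMP response element TGACGTCA, searched because PC12 cells respond to cyclic AMP, was in 2.35% of host promoters and 2.55% of all. The AP-1 site (TGACTCA or TGAGTCA) was in 2.43% and 3.99%. None of the 5 motifs contains another, and a match is only a run of letters.

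Annotated intron 1 peaks had signals like those of other intronic peaks. Their median signal was 3.00 (order-statistic 95% interval 2.99 to 3.10), against 3.00 in introns with a higher number (3.00 to 3.02) and 2.98 in distal intergenic DNA (2.98 to 2.98). Promoter peaks within 1 kb of a TSS had a median of 4.36 (4.27 to 4.43) and exonic peaks 3.45 (3.33 to 3.59). The signal is the authors' value per peak, and it ran from 2.00 to 23.3 in annotated intron 1. Its values are stepped, with 1525 distinct values among the 4275 peaks. A peak in the upper 10% of all α1ACT-only peaks had a signal of at least 5.28. That limit was reached by 373 annotated intron 1 peaks, or 8.73% (7.90 to 9.61%), where all peaks give 10% by construction. It was reached by 8.40% of peaks in higher-numbered introns (8.04 to 8.78%), 7.89% of intergenic peaks, 18.4% of exonic peaks and 32.5% of promoter peaks. The share in annotated intron 1 was thus below the background of 10%, with an interval that overlaps that of other introns.

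**Figure D2:**
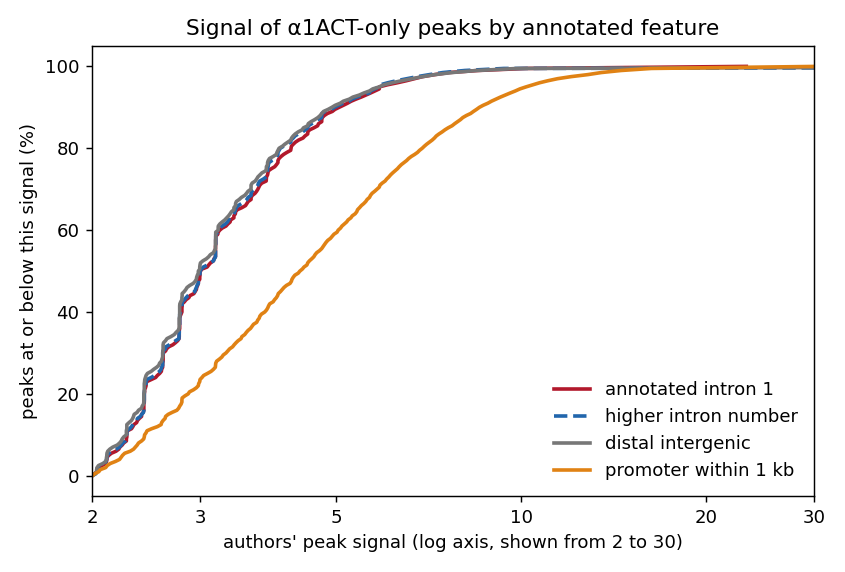
Cumulative share of peaks (vertical axis, %) at or below each authors' signal (horizontal axis, log scale from 2 to 30) for annotated intron 1, higher intron numbers, distal intergenic DNA and promoters within 1 kb. The intronic and intergenic curves run together with medians of 2.98 to 3.00, and the promoter curve lies to the right with a median of 4.36.

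Splitting by the direction of transcription left the signal alike. The median was 3.00 (2.99 to 3.11) where annotated intron 1 was the first along the transcript and 3.11 (2.99 to 3.18) where it was the last. It was 3.00 (2.87 to 3.17) in single-intron hosts. The upper 10% held 8.90% (7.86 to 10.0%) of the first, 9.22% (7.50 to 11.2%) of the second and 6.88% (4.78 to 9.52%) of the third kind. Taken over both strands, the 5049 peaks in first introns along the transcript had a median of 3.07 (3.00 to 3.15), and 9.27% (8.48 to 10.1%) were in the upper 10%. The 17888 peaks in inner introns had a median of 3.00 (2.99 to 3.01), with 8.17% (7.78 to 8.58%) in the upper 10%. The 1849 peaks in last introns had a median of 3.00 (2.99 to 3.16), with 8.98% (7.71 to 10.4%). In order from the TSS, intron 2 had a median of 3.02 and introns 3, 4 and 5 each had 2.99, all with intervals that overlap that of the first intron. The upper 1% of all peaks, with a signal of at least 9.41, made up 0.654% of first introns (0.450 to 0.917%), 0.703% of last introns (0.375 to 1.20%) and 0.464% of inner introns (0.370 to 0.575%).

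First introns along the transcript held more peaks than an equal split over introns gives, and last introns fewer. In hosts of known strand with 2 or more introns, 5049 of 24786 intronic peaks were in the first intron (20.4%, 19.9 to 20.9%) and 1849 in the last (7.46%, 7.14 to 7.79%). An equal share per intron would be 10.8%. Relative to the equal share, the excess of the first intron grew with the number of introns, while the deficit of the last did not grow steadily. In transcripts of 2 introns the first held 52.1% (47.4 to 56.9%) and the last 47.9%, around an equal share of 50%. In transcripts of 3 introns the first held 38.5% and the last 23.9%, with an equal share of 33.3%, and in those of 4 to 5 introns 26.5% and 13.9%, with 22.1%. In transcripts of 6 to 10 introns the first held 21.4% and the last 9.12%, with an equal share of 12.8%. In transcripts of 11 to 20 introns the first held 18.9% and the last 4.77%, with an equal share of 7.02%. In transcripts of 21 to 105 introns the first held 14.5% (13.7 to 15.4%) and the last 1.80% (1.49 to 2.16%), with an equal share of 3.53%. The annotated number joins the first introns of one strand with the last introns of the other. By the annotated number, intron 1 held 22.0% of intronic peaks in plus-strand hosts (21.3 to 22.8%) and 8.15% in minus-strand hosts (7.67 to 8.64%). Intron lengths on rn5 were not used here, and their part in these shares was not tested.

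**Figure D3:**
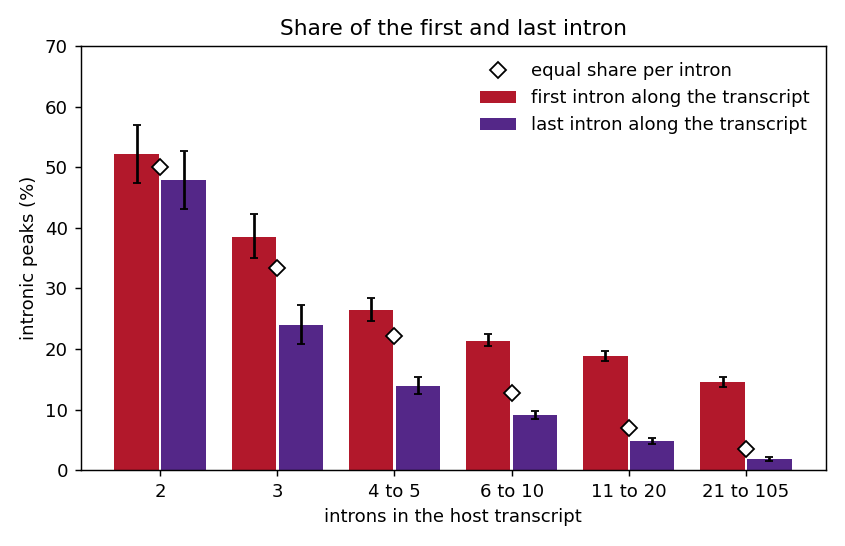
Share of intronic α1ACT-only peaks (vertical axis, %) in the first and the last intron along the transcript, by the number of introns in the host (horizontal axis), with exact 95% binomial intervals and diamonds at the equal share per intron. The first intron lies near the equal share in 2-intron hosts and at 14.5% against 3.53% in hosts of 21 to 105 introns, where the last intron lies at 1.80%.

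Distances from the host TSS separated the strands. Over 4132 annotated peaks with a single listed host span, the median distance from the peak centre to the host TSS was 48.3 kb (quartiles 16.9 and 136 kb). It was 37.5 kb (13.6 and 100.9 kb) where annotated intron 1 was the first along the transcript, and 101.4 kb (32.5 and 252 kb) where it was the last. Within 10 kb of the host TSS lay 18.3% of the first kind and 7.69% of the last. The farthest annotated peaks, in Ctnna2 at 1139 kb, St6galnac5 at 1124 kb and Hpse2 at 1103 kb, lay in spans of 1159, 1129 and 1104 kb, close to the far end. Ctnna2 encodes an α-catenin of neuronal junctions, St6galnac5 a sialyltransferase and Hpse2 a heparanase relative.

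The share of tall peaks by distance did not follow a steady course in first introns. In first introns along the transcript the upper 10% held 12.7% of 332 peaks within 5 kb of the host TSS (9.27 to 16.7%). At 20 to 50 kb it held 8.98% of 1214 (7.43 to 10.7%), at 100 to 200 kb 7.61% of 670 (5.72 to 9.89%), and beyond 200 kb 9.58% of 480 (7.10 to 12.6%). All 4 of these intervals overlap. The inner introns gave 12.3% of 268 (8.63 to 16.9%), 9.25% of 3374 (8.29 to 10.3%), 6.87% of 3186 (6.02 to 7.81%) and 7.32% of 5426 (6.64 to 8.04%) at the same distances. First and inner introns had overlapping intervals at each of these 4 distances.

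Within single transcripts the first intron and all other introns together were nearly balanced, while the first was more often lower than the last. By the annotated number, 778 transcripts had peaks both in intron 1 and in another intron, and the median was higher in intron 1 in 403 (51.8%, 48.2 to 55.4%), lower in 372 and tied in 3. Counted along the transcript, the first intron was higher in 556 of 1034 (53.8%, 50.7 to 56.8%), with a median difference of 0.0671. With at least 3 peaks on each side it was higher in 109 of 215 (50.7%, 43.8 to 57.6%). Against the last intron of the same transcript, the first was higher in 86 of 203 (42.4%, 35.5 to 49.5%) and lower in 115. With at least 3 peaks on each side it was higher in 6 of 29 (20.7%, 7.99 to 39.7%), a small set. These intervals count transcripts and not libraries, since there was 1 library.

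The 4275 peaks fell in 1440 host genes, unevenly. A single peak was found in 846 hosts (58.8%), and 88 hosts with 10 or more held 39.2% of the peaks. The host was also the nearest gene for 76.3% of the peaks (75 to 77.6%) and not for the others, so a table of nearest genes names other genes for them. Another α1ACT-only peak lay within 1 kb of 41.4% of annotated intron 1 peaks (39.9 to 42.9%), against 42.7% in other introns and 54.5% in intergenic DNA. By chromosome, annotated intron 1 took from 1.27% of the peaks of X to 5.71% of those of chromosome 12.

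The host with the most peaks was Cyp2c7, a cytochrome P450 of the liver, with 90 peaks between chr1:153719636-154215529. It is on the minus strand, so these lay in its last intron, 192 to 688 kb from the TSS of a listed span of 690 kb. Their lowest, median and highest signals were 2.03, 3.18 and 9.32. Only 1 of its 10 nearest neighbours was shared with the GRCr8 table, and it belongs to a family of near-identical genes, so its listed span is uncertain. Ccdc40, which encodes a protein of motile cilia, followed with 56 peaks in its first intron and signals of 2.01, 3.73 and 18.5. It had 13 peaks in the upper 10%, beside the peak in its promoter window given above. Galntl6, a member of the polypeptide N-acetylgalactosaminyltransferase family, had 52 peaks from 2.05 to 7.99 with a median of 2.99. Vom2r36 had 44 peaks, and Olr665, Vom2r4 and Vom2r60 had 41 each, with median signals of 2.77, 3.00, 2.83 and 2.96. Vom2r4 shared 2 of its 10 neighbours with that table and has a listed span of 914 kb, so its span is uncertain too. The listed span of Olr665, 265 kb, held 7 other genes, and that of Vom2r36, 242 kb, held 4. Only 4 of 1398 host spans held 5 or more other genes. Whether the peaks of Olr665 and Vom2r36 lie in a true intron is therefore uncertain. Vom2r36, Olr665, Vom2r4 and Vom2r60 encode vomeronasal and olfactory receptors. They belong to large families of similar genes where reads can be shared between copies. Such receptors were 26 of the 1440 hosts (1.81%). They hosted 306 annotated intron 1 peaks (7.16%, 6.40 to 7.97%) and 433 of those in other introns (2.01%, 1.82 to 2.20%). Peaks within a gene count as separate here, and a single-intron receptor such as Olr665 can add only to annotated intron 1. Hs6st3, a heparan sulfate sulfotransferase, had 37 peaks in its only intron, from 2.04 to 9.68 with a median of 2.80. Cntnap5c, a contactin-associated protein of neurons, had 34, and Sgcz, the zeta-sarcoglycan gene, had 33. Their highest signals were 6.62 and 5.21.

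**Figure D4:**
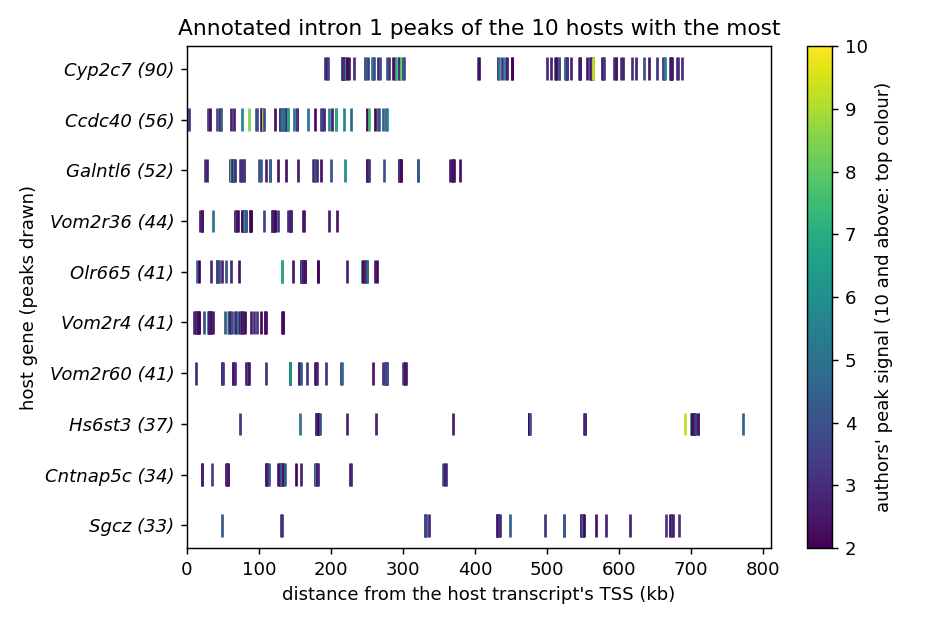
Distance from the host TSS (horizontal axis, kb) of each annotated intron 1 peak in the 10 hosts with the most, coloured by the authors' signal (colour scale from 2 to 10). The peaks of Cyp2c7, a minus-strand host, begin at 192 kb, and those of Ccdc40 spread from 3.01 to 278 kb with several of high signal.

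The tallest annotated peak lay in Smok2a, a sperm motility kinase gene, at chr1:55346868-55346923, with a signal of 23.3. It was 18.1 kb from the TSS, in the last intron of a minus-strand transcript of 2 introns. A second Smok2a peak, at chr1:55347751-55347806, had 13.9, and the gene held 28 peaks with a median of 4.29. Rabgap1, which encodes a GTPase-activating protein for Rab proteins, had a peak of 18.9 at chr3:26945657-26945712, in its first intron 8.48 kb from the TSS. The Ccdc40 peak of 18.5, at chr10:107934508-107934563, lay in the first intron but 261 kb from the host TSS, and the nearest TSS was that of Gaa, the lysosomal glucosidase gene, 73.3 kb away. Asic4, an acid-sensing ion channel family member, had 18.0 at chr9:82424151-82424206, 7.85 kb into the gene. Idh3g, a subunit of mitochondrial isocitrate dehydrogenase, had 14.9 at chr1:152752018-152752073, 4.15 kb from its TSS. Mbnl2, a splicing regulator, had 13.2 at chr15:109063164-109063219, 19.9 kb from its TSS. These 5 genes are on the plus strand, so their peaks were in the first intron along the transcript.

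Pip5k1b, a phosphatidylinositol phosphate kinase, had 14.3 at chr1:249447769-249447824. Its transcript is on the minus strand and has 14 introns, so the peak was in the last one, 267 kb from the TSS. Pms2, a mismatch repair gene, had 13.3 at chr12:14762094-14762149, and the strand of that transcript was not given. Olr665 had 12.01 at chr3:84301803-84301858, in its only listed intron. The nearest TSS was that of Olr666, 18.9 kb away, and the listed span of Olr665 held 7 other genes. All 10 of the tallest peaks shared the highest deposited −log10 q-value of 3.89.

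Genes with annotated intron 1 peaks were longer than others. Of 18533 background protein-coding genes, 1424 had such a peak (7.68%), and 1833 had a peak in the first intron along the transcript or an only intron (9.89%). The listed span of hosts had a median of 71.6 kb, against 17.8 kb for all background genes with an assigned peak. By span, the share rose from 0.196% of genes under 5 kb (0.0719 to 0.426%) to 47.9% of those over 500 kb (40.1 to 55.8%). Counted along the transcript it rose from 0.196 to 64.8% (57.0 to 72.1%). Genes of 100 to 200 kb gave 29.3% by the annotated number and 40.4% along the transcript. Those of 200 to 500 kb gave 36.9% and 52.5%. The median span was 390 kb for adhesion and synapse organisers and 229 kb for glutamate, GABA and glycine receptors. It was 193 kb for axon guidance, 191 kb for transcription factors of long genes and 145 kb for potassium and sodium channels. Calcium channels had 123 kb, cadherins 100 kb and presynaptic release 91.3 kb. The part of span in the list counts was not tested. All shares of list genes below are read against 7.68% for the annotated intron and 9.89% for the transcript's own first or only intron.

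Reported α1ACT targets came first. Of 4 genes, only Cacna1a, which itself encodes α1ACT, had annotated peaks, 2 in the first intron. They lay 15.5 and 24.7 kb from the TSS, at chr19:36517999-36518054 and chr19:36527201-36527256, with signals of 2.61 and 2.99, below the median of 3.02 of all peaks. Btg1, an antiproliferative gene, had 4 peaks within 1 kb of its TSS and none in introns. Grn, the progranulin gene, had 1 near its TSS and 1 in another intron, and Atp2b2, a plasma membrane calcium pump, had 2 in other introns.

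Cyclic nucleotide phosphodiesterases had the highest share of annotated hosts among the 22 lists. Of these enzymes, which break down cyclic AMP and cyclic GMP, 10 of 21 had an annotated intron 1 peak (47.6%, 25.7 to 70.2%, median span 131 kb). Along the transcript, 16 of 21 did (76.2%, 52.8 to 91.8%). Background genes with a span of 100 to 200 kb gave 29.3% and 40.4% by these 2 counts. Pde4a, which is specific for cyclic AMP, had peaks of 2.32 and 7.38, the higher at chr8:22261828-22261883, 16.1 kb from the TSS. Pde8a had 4 peaks of 2.96, 2.99, 3.87 and 7.14, the highest 51.8 kb from the TSS. Pde11a had 2 annotated peaks that lay in its last intron, and 7 others in its first intron along the transcript that the annotated number leaves out. The same held for Pde1c and Pde7b, each with 7 peaks in the first intron along the transcript and 0 annotated as intron 1.

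Among cadherins, calcium-dependent adhesion molecules, 12 of 38 were annotated hosts (31.6%, 17.5 to 48.7%) and 15 along the transcript. Cdh10 had 8 peaks with lowest, median and highest signals of 2.42, 2.79 and 7.92, and Cdh9 had 5 of 2.43, 3.16, 3.24, 4.73 and 6.80. Pcdh9 had 17 annotated peaks that lay 693 to 938 kb from the TSS, in its last intron, and 20 in its first. Of 39 adhesion and synapse organiser genes, 12 had annotated peaks (30.8%, 17.0 to 47.6%), and 21 had peaks along the transcript (53.8%, 37.2 to 69.9%). Among their highest signals were Ncam2, a neural adhesion molecule, with 23 peaks from 2.20 to 9.61 and a median of 3.26, and Cntn4, a contactin, with 5 of 2.11, 2.27, 3.29, 3.58 and 8.16. The presynaptic list had 10 of 40, where Unc13c, a vesicle priming factor, had peaks of 2.77, 4.42 and 7.64. Sv2c, a synaptic vesicle protein, had 11 of up to 6.69 in its last intron. Its list rose to 17 of 40 along the transcript (42.5%, 27.0 to 59.1%).

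Of 43 glutamate, GABA and glycine receptor genes, 10 had annotated peaks. Grm3, a metabotropic receptor, had 7 from 2.24 to 4.81. Of 39 potassium and sodium channel genes, 12 had them. Kcnip4, a channel-interacting protein, had 20 from 2.11 to 6.17, and Kcnc2, a voltage-gated channel, had 4 of 2.43, 2.99, 3.18 and 5.87. Of 39 calcium channel, pump and release genes, 8 had annotated peaks and 14 had peaks along the transcript. Cacna2d2, an auxiliary subunit, had 1 of 4.08, and Cacng3, a gamma subunit, 1 of 3.18. Of 25 calmodulin, kinase and phosphatase genes, 3 had them, among them Prkce, a protein kinase C, with 5 of 2.61, 2.63, 4.03, 5.28 and 10.4, and Camk2g with 3 of 2.02, 3.18 and 4.24.

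Axon guidance genes shifted with the numbering, from 5 of 40 by annotation (12.5%, 4.19 to 26.8%) to 15 of 40 along the transcript (37.5%, 22.7 to 54.2%). Robo1, a Slit receptor, had 18 peaks from 2.13 to 6.52 with a median of 4.22, and Unc5c, a netrin receptor, had 8 from 2.28 to 5.27. In the neurotrophin and MAP kinase list, 7 of 41 were annotated hosts and 15 along the transcript. Map2k1, a MAP kinase kinase, had 1 annotated peak of 7.14 at the far end of a listed span of 591 kb, and 27 peaks in its first intron. Rps6ka2, a ribosomal S6 kinase, had peaks of 2.57 and 5.94. Of 39 transcription factors of long genes, 12 had annotated peaks, including Nr3c2, the mineralocorticoid receptor, with 1 of 4.77 in its last intron, and Nfia with 1 of 4.70.

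Chromaffin and sympathetic genes, the type of cell that PC12 resembles, gave 5 of 34 (14.7%, 4.95 to 31.1%). Along the transcript this list fell to 4 of 34 (11.8%, 3.30 to 27.5%), against 9.89% of background genes. Pcsk2, a prohormone convertase, had 8 peaks from 2.39 to 4.09, and Chrna5, a nicotinic receptor subunit, had 1 of 3.18. Purkinje cell markers gave 4 of 27 (14.8%, 4.19 to 33.7%), with Plcb4 at 8 peaks from 2.29 to 5.55. Granule lineage markers gave 3 of 30, with Reln at 2.99 and 5.55. Along the transcript the Purkinje list gave 3 of 27 (11.1%, 2.35 to 29.2%) and the granule list 5 of 30. Glial and immune markers gave 1 of 20 each, with Mbp at up to 4.78 and Cx3cr1 at 2.78 and 3.18. Liver markers gave 2 of 20, among them Hnf4a at 2.43. Oxidative phosphorylation gave 2 of 40, Cox6c at 3.79 and Ndufs4 at 2.93. Muscle and keratin markers gave 0 of 20 by the annotated number and 2 of 20 along the transcript, immediate early genes 0 of 30 (0 to 11.6%) and cytosolic ribosomal protein genes 0 of 48 (0 to 7.40%). The median spans of these last 2 lists, 4.00 and 3.04 kb, were the shortest of all 22 lists.

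**Figure D5:**
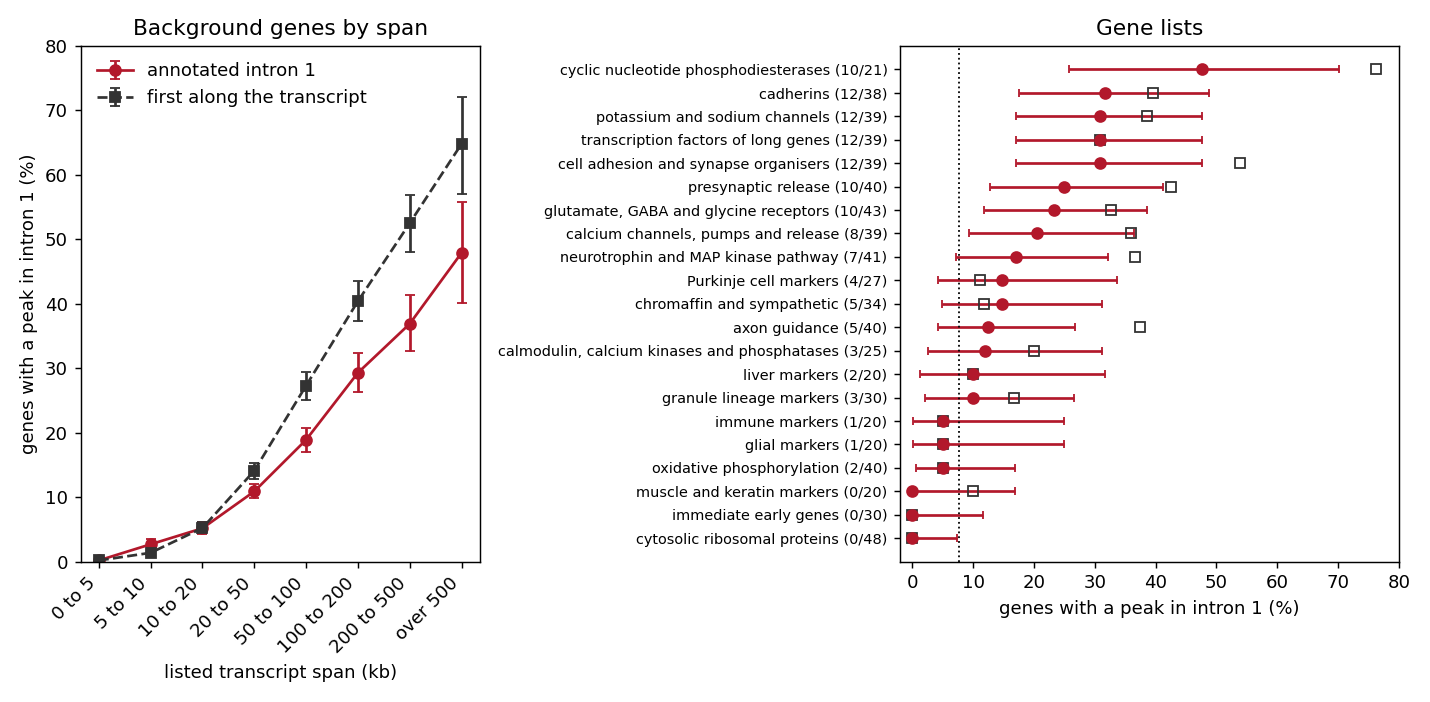
Left, share of background genes (vertical axis, %) with a peak in intron 1 by listed span in kb (horizontal axis), by the annotated number (circles) and along the transcript (squares), with exact 95% binomial intervals. Right, the same share for 21 gene lists (circles with intervals for the annotated number, open squares along the transcript, counts in brackets, dotted line at 7.68%), where phosphodiesterases lie highest at 47.6 and 76.2%.

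Hosts of annotated intron 1 peaks had a peak at the TSS about as often as all genes with an assigned peak, hosts among them. A peak within 1 kb of the TSS was found in 629 of 1408 hosts of annotated intron 1 peaks (44.7%, 42.1 to 47.3%), against 43.2% of the 14390 genes in the table. Genes with a peak in the first intron along the transcript had one in 47.8% (45.4 to 50.1%), an interval above 43.2%. This was not particular to first introns. Hosts of peaks in higher-numbered introns had one in 45.7% (44.2 to 47.1%), also above 43.2% and overlapping the interval of the first intron. Genes with a peak in the last intron along the transcript had one in 42.7% (39.2 to 46.2%). None of the 4275 peaks overlapped a peak of the other 3 lists, which hold 244 peaks for EV with M2, 272 for EV with 1804 and 81 for α1ACT with M2. The peaks come from a table named for peaks found only with α1ACT, so absence of overlap with the EV lists is largely set by that selection. The share of all α1ACT-only peaks that overlap these lists is not given here. The absence of overlap, also with the 81 peaks of α1ACT with M2, is therefore not read as a trait of annotated intron 1. A single peak, in the first intron of Cyp2b1 at chr7:99762506-99762561 with a signal of 11.1, lay within 1 kb of a peak of EV with 1804. None of the neighbours of Cyp2b1 was shared with the GRCr8 table, so its placement is uncertain. Those lists are short, and their lowest signals were 19.0 for EV with M2, 14.0 for EV with 1804 and 53.6 for α1ACT with M2. The list of 161730 peaks for α1ACT with 1804 began at 2.00. How the signals were scaled between lists is not stated, so they are not compared.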

How the data were processed

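The deposited files were 4 peak lists, from the libraries made with an antibody, and a table annotating the α1ACT-only peaks. The submitters' processing notes name ChIPseeker, HOMER, DiffBind, BWA 0.7.5a and FastQC 0.11.2, with the build rn5 and no roles. Per the file headers and values, each list holds a signal and a −log10 q-value per 56 bp peak; no source used here gives the authors' peak caller settings. The deposited signal was compared only within the α1ACT 1804 list, as ranks, medians and differences of medians. Table rows were joined to the α1ACT 1804 list by chromosome and start.

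The host gene was the one in the annotation text, not the nearest. Strand and span came from the transcripts the table lists. Introns were recounted along the transcript, a step chosen after seeing the data. Gene lists (22, with 6 of 703 symbols unmatched) used names and gene IDs of GRCr8. Members and lists were chosen with earlier results of these data known. Named genes were the 10 tallest peaks, the 10 hosts with the most peaks, the 2 tallest members of each list, and the reported targets, and a few genes that this rule names are not reported here; Btg1, Grn, Atp2b2, Pde11a, Pde1c, Pde7b, Pcdh9 and the hosts of the farthest peaks that are not in that rule were chosen after seeing values, as were the promoters printed. Shares have exact (Clopper-Pearson) 95% binomial intervals and medians order-statistic intervals, computed in Python 3.11.15 with pandas 2.3.3 and SciPy 1.17.1 and tested on simulated data. With 1 library per group, there are no replicates and no p-values.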

Additional observations from a re-analysis of the deposited data

How the results depend on the processing

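Counting introns along the transcript, an alternative added after seeing the data, moved the share of intron 1 to 3.47% of all peaks and 21.9% of intronic peaks, and the median distance to the nearest TSS from 35.7 to 29.6 kb (29567 bp). The hosts rose from 1440 to 1849, the difference in median signal between intron 1 and the other introns from 0.00495 to 0.0327, and the upper-10% share from 8.73 to 9.06%. By the annotated number, the share of all peaks was 2.34% among the upper 10% by signal and 2.85% with peaks closer than 500 bp merged. The share of intronic peaks was 17.1% in the upper 10%, 15.0% without single-intron transcripts, 17.6% where the host was the nearest gene and 15.8% without olfactory and vomeronasal hosts, also added later. The host genes fell to 294 in the upper 10%. The share of tall peaks was 3.95% for the upper 5% and 0.725% for the upper 1%. By the highest peak of each class, intron 1 was above the other introns in 42.3% of 778 transcripts, where it held 2723 peaks and the others 5582. Peaks near the other 3 lists rose from 0 by overlap to 1 within 1 kb. No paired analysis was possible because each group held 1 library. Unknown depth limits every count.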
